A study of Mus musculus with 43 samples.

Results

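The genes described here are 10 markers and regulators of bone and cartilage formation, Sp7, Alpl, Bglap, Bglap2, Spp1, Ibsp, Sox9, Dlx5, Msx2 and Dmp1, taken by gene symbol from all 6 deposited count tables. All 10 were present among the 26264 genes of each table. The labels name mouse samples only, in 43 RNA-seq libraries and 15 groups. In culture, a brown fat cell line labelled BAT was differentiated into brown adipocytes in every group. A first table held a control labelled OEV and wild type, cultures overexpressing Runx1 and cultures overexpressing Runx2, with 3 libraries each. A second held a knockout control, Runx1 knockout, Runx2 knockout and double knockout cultures, again with 3 libraries each. Another table held full-length Runx2 and Runx2 with a region labelled IDR deleted, with 2 libraries each and no control without added Runx2. Inguinal white fat (iWAT) came from Runx1 flox and Adipoq-cre Runx1 knockout animals, from Runx2 flox and Adipoq-cre Runx2 knockout animals, and from wild-type and Runx1 knockout animals labelled HFD, each with 3 libraries per group. Adipoq-cre acts in adipocytes, so the other cells of the tissue are not its target. The labels of the HFD groups name no Cre line. Age, pooling, and whether a cultured knockout is a single clone are not given in the sources used here. The labels also do not say that replicates were separate cultures or animals, so p-values measure only the spread between these libraries.

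RUNX2 is the transcription factor that commits mesenchymal cells to the osteoblast lineage, and it acts upstream of SP7, the osteoblast factor also called osterix. SOX9 directs chondrocyte formation, and DLX5 and MSX2 are homeobox factors of the developing skeleton. ALPL, tissue-nonspecific alkaline phosphatase, removes the pyrophosphate that blocks mineral growth. Spp1 (osteopontin), Ibsp (bone sialoprotein) and Dmp1 (dentin matrix protein) encode secreted phosphoproteins of mineralised matrix, and Bglap and Bglap2 encode osteocalcin, a late product of osteoblasts. RUNX1 belongs to the same DNA-binding family and is best known from blood cell formation. Alpl, Spp1 and Sox9 are also expressed outside the skeleton, Spp1 strongly in macrophages.

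The osteocalcin promoter is a classical target of RUNX2, and the osteocalcin and osteopontin genes rose together in the overexpression cultures described next, so their proximal promoters are shown with that of Ibsp. RefSeq promoter entries of GRCm38.p6 were found for 6 of the 10 genes, in 9 windows. Only the 250 bases before each annotated start were read. The RUNX core motif was searched as TGTGGT or TGCGGT and as their reverse complements ACCACA or ACCGCA. It occurred in 3 of the 9 windows, and in 18.6% of all 32851 windows of that length. The matches lay in the Bglap window, 1 of the 2 Spp1 windows and 1 of the 2 Dmp1 windows. Both Alpl windows, the other Spp1 and Dmp1 windows, and the Ibsp and Msx2 windows held none. Capitals mark the match in the sequences below, which are read in the direction of transcription. Bglap lies at chr3:88384467-88384716 on the minus strand, Spp1 at chr5:104434861-104435110 and Ibsp at chr5:104299037-104299286, both on the plus strand.

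Bglap: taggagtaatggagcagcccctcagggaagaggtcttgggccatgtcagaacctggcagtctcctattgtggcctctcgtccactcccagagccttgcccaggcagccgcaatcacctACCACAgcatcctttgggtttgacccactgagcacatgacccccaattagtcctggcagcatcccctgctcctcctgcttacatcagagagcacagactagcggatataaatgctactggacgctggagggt
Spp1: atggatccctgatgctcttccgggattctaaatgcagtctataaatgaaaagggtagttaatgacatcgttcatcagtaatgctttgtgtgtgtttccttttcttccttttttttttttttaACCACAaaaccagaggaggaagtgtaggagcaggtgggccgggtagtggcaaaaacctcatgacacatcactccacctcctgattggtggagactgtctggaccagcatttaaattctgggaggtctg
Ibsp: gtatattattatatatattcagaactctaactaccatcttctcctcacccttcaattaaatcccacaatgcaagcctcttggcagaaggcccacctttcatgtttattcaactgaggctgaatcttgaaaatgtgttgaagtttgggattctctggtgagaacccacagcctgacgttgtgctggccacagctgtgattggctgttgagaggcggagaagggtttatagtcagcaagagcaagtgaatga

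The Bglap match began 132 bases before the start and the Spp1 match 128 bases before it. The Ibsp window shows no copy of these letters. A match is a description of the letters and says nothing of binding, which was not measured in these libraries.

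Library totals ran from 28092201 to 52171378 counts. Levels are given as CPM, the count over the TMM-scaled library size in its usual unit, and a gene was called changed at an edgeR quasi-likelihood adjusted p below 0.05 over all genes tested in its comparison. Fold changes are fitted log2 values with a standard error (SE). The adipocyte markers (6 genes, Adipoq and Plin1 among them) had counts in every library, with summed levels of 3549 to 15389 CPM in the cultures and 12205 to 40472 CPM in iWAT. Some libraries stood apart. Summed cardiac muscle genes exceeded 100 CPM in OEV control replicates 1 and 2 and in Runx1 overexpression replicate 3, and reached 1870 CPM. Double knockout replicate 1 differed from the other libraries of its group more than they did from each other, and had the highest summed adipocyte genes of the cultures (15389 CPM). Summed skeletal muscle genes exceeded 1000 CPM in Runx1 flox replicate 2, Runx1 knockout iWAT replicates 2 and 3 and Runx2 flox replicate 3. Results without these libraries are given for some of the genes whose call or value moved.

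The targeted genes were read first. Runx1 stood at 73.9 ± 10.5 CPM (SD, n = 3) in the Runx1 overexpression cultures against 5.57 ± 1.23 CPM (n = 3) in the OEV control. Runx2 stood at 309 ± 25.8 CPM (n = 3) in the Runx2 overexpression cultures against 8.77 ± 0.892 CPM (n = 3). Each factor's transcript also rose in the other's cultures, with Runx1 at 30.3 ± 2.03 CPM in the Runx2 cultures (log2 2.44, SE 0.17, adjusted p 2.28e-07) and Runx2 at 16.8 ± 1.37 CPM in the Runx1 cultures (log2 0.94, SE 0.11, adjusted p 3.13e-05). In the knockout cultures Runx1 was at 5.43 ± 1.13 CPM in the Runx1 knockout and 5.24 ± 2.62 CPM in its control, and Runx2 at 7.61 ± 0.956 CPM in the Runx2 knockout and 7.71 ± 1.28 CPM in the control. In the double knockout Runx1 was at 4.72 ± 1.55 CPM and Runx2 at 7.55 ± 1.39 CPM (adjusted p 0.789 and 0.93). These levels do not check the knockout labels, because the deleted stretch is not given and an edited gene can still be transcribed. The cultures are called knockouts as labelled. In iWAT, Runx1 was at 21.0 ± 0.410 CPM in the Runx1 knockout and 32.1 ± 9.34 CPM in the flox group (adjusted p 0.0779), and Runx2 at 4.32 ± 2.22 CPM in the Runx2 knockout and 9.89 ± 5.42 CPM in its flox group (adjusted p 0.254). In the HFD groups Runx1 was at 11.7 ± 3.09 CPM in the knockout and 14.4 ± 4.998 CPM in wild type (adjusted p 0.955).

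With Runx1 overexpressed, all 10 genes rose. Of all 14661 genes tested, 28.2% were called higher in this comparison. The members' median log2 fold change was 4.93, and the median over all genes tested was 0.06. Only Alpl, Spp1 and Sox9 had 10 or more counts in every OEV control library. The other 7 passed the count filter through the overexpressing libraries, so for them a difference was built into being tested. The 3 that were well counted in the control rose by log2 1.52, 5.08 and 1.64.

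The osteoblast factor Sp7 was at 0.264, 0.0671 and 0.400 CPM in the 3 control libraries, 13.8, 14.3 and 11.7 CPM with Runx1 and 4.25, 3.43 and 3.14 CPM with Runx2. The 3 groups did not overlap, with the Runx1 cultures highest. Sp7 rose by log2 5.69 (SE 0.39, adjusted p 4.97e-07) with Runx1 and by log2 3.81 (SE 0.38, adjusted p 4.58e-06) with Runx2. Dlx5 had counts in 1 control library only, at 0.10 CPM, and was at 1.71 to 2.75 CPM with Runx1 and 1.90 to 2.14 CPM with Runx2. Its log2 fold changes of 5.75 (SE 0.75) and 5.59 (SE 0.75) rest on 4 control counts. Without control replicate 3, which held them, the fitted values were 9.41 and 9.28, and such a fit against 0 counts sets no bound. The lowest fitted Dlx5 values over all settings were 4.60 and 4.28. Msx2 was at 0.725, 0.201 and 1.00 CPM in the control, and at 1.57 to 1.93 CPM with Runx1 and 0.850 to 1.14 CPM with Runx2. It was called higher with Runx1 (log2 1.48, SE 0.50, adjusted p 0.0277) and not with Runx2 (log2 0.66, SE 0.50, adjusted p 0.272). The Runx1 call was lost without control replicate 1 (adjusted p 0.0622), without Runx1 replicate 1 (0.0733) and without the libraries with cardiac transcripts (log2 0.81, 0.163).

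Sox9, the cartilage factor, was at 6.85, 4.70 and 5.65 CPM in the control, 17.0, 17.95 and 18.7 CPM with Runx1 and 25.8, 25.5 and 31.7 CPM with Runx2. Here the Runx2 cultures were highest, and again no groups overlapped. Sox9 rose by log2 1.64 (SE 0.15, adjusted p 4.87e-06) and by log2 2.27 (SE 0.15, adjusted p 2.07e-07). Leaving out each library in turn gave values from 1.51 to 1.78 with Runx1 and from 2.16 to 2.42 with Runx2, all called.

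Alpl, the mineralisation enzyme, was already abundant in the control at 74.7, 87.5 and 87.6 CPM. It reached 265, 244 and 210 CPM with Runx1 and 113, 103 and 95.6 CPM with Runx2. The Runx1 increase was log2 1.52 (SE 0.11, adjusted p 9.25e-07) and the Runx2 increase log2 0.32 (SE 0.11, adjusted p 0.0263). The Runx2 call was lost without control replicate 1 (adjusted p 0.114), without Runx2 replicate 1 (0.0936) or 2 (0.0586), and without the libraries with cardiac transcripts (0.112). Its groups did not overlap.

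Among the matrix genes, Spp1 was at 4.55, 3.22 and 8.80 CPM in the control, 226, 182 and 162 CPM with Runx1 and 88.8, 84.9 and 86.6 CPM with Runx2. The 3 groups were fully separate. Spp1 rose by log2 5.08 (SE 0.32, adjusted p 9.31e-07), a 33.8-fold change, and by log2 3.95 (SE 0.30, adjusted p 2.03e-06), a 15.4-fold change. Over all settings its fitted log2 value ran from 4.54 to 5.59 with Runx1 and from 3.30 to 4.49 with Runx2. Per kilobase of exon, Spp1 was the most abundant of the 10 transcripts in both overexpressing groups, at 115 and 52.6 CPM per kb, while Alpl led in the control with 20.7 CPM per kb against 3.35 for Spp1. Ibsp had counts in control replicate 2 only, 8 in all, and was at 5.32, 5.27 and 3.93 CPM with Runx1 and 1.42, 1.74 and 2.01 CPM with Runx2. Its log2 fold changes were 5.81 (SE 0.84, adjusted p 0.000156) and 4.32 (SE 0.83, adjusted p 0.000816). Without control replicate 2 the fits gave 10.57 and 9.11, against a control at 0 counts. Dmp1, a gene of late osteoblasts and osteocytes, stayed below 1 CPM in every culture library. It had 2 counts in the control, 24 with Runx1 and 66 with Runx2, ratios of 9.97 (95% exact interval 2.48 to 87.1) and 26.1 (6.96 to 220). These intervals cover counting error only, and are too narrow if both reads of a pair were counted. The Runx1 call of Dmp1 (adjusted p 0.0219) was lost without control replicate 2 (0.0682) or 3 (0.0806) and without the libraries with cardiac transcripts (0.0513), and its fitted value went from 3.11 to 6.02 without control replicate 1. The Runx2 call (log2 4.53, adjusted p 0.00174) had a fitted value of 7.44 without control replicate 1.

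The osteocalcin genes rose from near 0. Bglap was at 0.264, 0.134 and 0.150 CPM in the control, 6.45, 6.23 and 2.46 CPM with Runx1 and 2.67, 2.33 and 2.11 CPM with Runx2. Both overexpressing groups lay above the control, with Runx1 replicate 3 as low as the Runx2 cultures. The increases were log2 4.77 (SE 0.46, adjusted p 7.08e-06) and log2 3.68 (SE 0.45, adjusted p 2.69e-05). Bglap2 had 2 counts in the whole control group, both in replicate 3, and was at 19.2, 19.7 and 10.5 CPM with Runx1 and 8.86, 7.56 and 8.58 CPM with Runx2. Its ratio to the control was 834 (95% exact interval 231 to 6891) with Runx1 and 419 (116 to 3465) with Runx2. Without control replicate 3 its fitted log2 values went from 9.48 to 12.29 and from 8.50 to 11.33. The lowest fitted Bglap2 values over all settings were 8.52 and 7.30. The copies are hard to tell apart in short reads: of the 50-base stretches in Bglap transcripts, 51.3% also occur in Bglap2, and 69.2% of those of Bglap2 occur in Bglap (GENCODE M21). The split of counts between these genes is therefore uncertain.

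**Figure D1:**
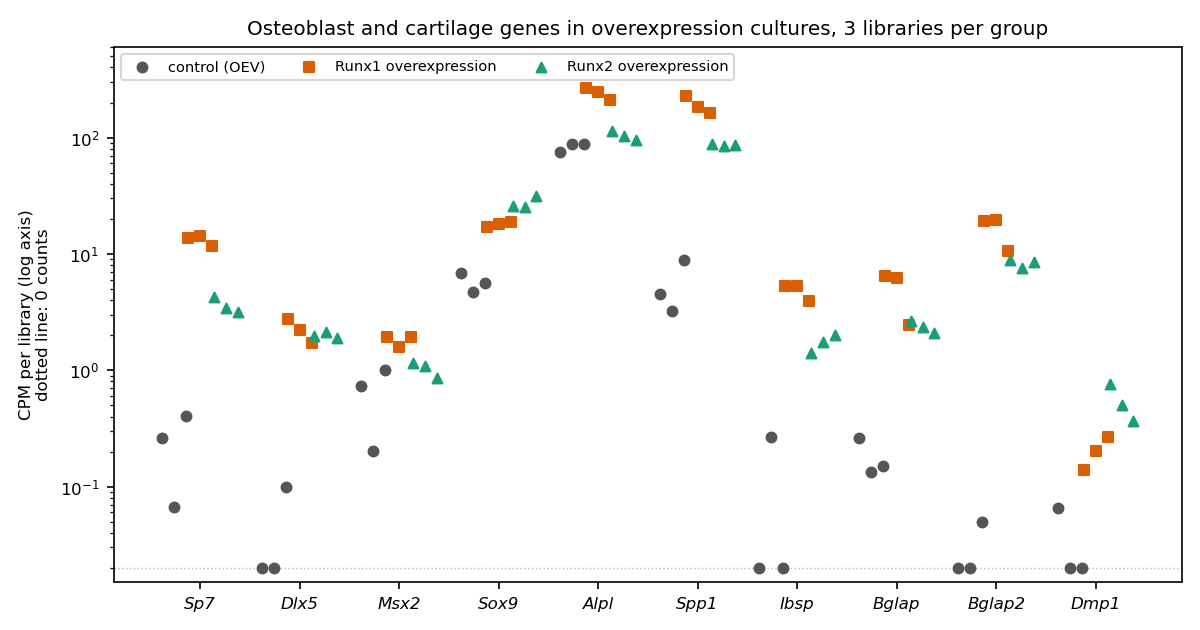
Levels of the 10 genes in each overexpression library, in CPM on a log axis, with points on the dotted line for libraries with 0 counts. Circles are the OEV control, squares Runx1 and triangles Runx2 overexpression. Every Runx1 library lies above every control library for each gene, from Dmp1 at 0.138 to 0.267 CPM to Alpl at 210 to 265 CPM with Runx1. The share of all genes that separate in this way is not reported here, and 59.1% had an unadjusted edgeR p below 0.05. Of the 10 genes, 7 passed the count filter through the overexpressing libraries.

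With Runx2 overexpressed, 9 of the 10 genes were called higher, against 31.3% of the 14661 genes tested. Here too, 7 of the 10 passed the count filter through the overexpressing libraries, so for them a difference was built into being tested. The 3 that were well counted in the control, Alpl, Spp1 and Sox9, rose by log2 0.32, 3.95 and 2.27. Msx2 was the exception. The members' median log2 fold change was 3.88, and that of all genes tested 0.03. In both comparisons the same 3 control libraries served as the reference, so the fold changes are not independent of each other.

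Set directly against each other, the Runx2 and the Runx1 cultures differed in 6 of the 10 genes, against 39.9% of all genes tested. Sp7 was lower with Runx2 by log2 -1.88 (SE 0.30, adjusted p 0.000614), a 3.67-fold difference. Alpl was lower at log2 -1.21 (SE 0.11, adjusted p 1.47e-05) and Spp1 at log2 -1.13 (SE 0.26, adjusted p 0.00731). Bglap and Bglap2 were lower at log2 -1.09 (SE 0.37, adjusted p 0.036) and -0.98 (SE 0.27, adjusted p 0.0129). Sox9 was the only called gene of the 10 that was higher with Runx2, at log2 0.63 (SE 0.14, adjusted p 0.00486). Ibsp at -1.48 (adjusted p 0.0833), Msx2 at -0.81 (0.211), Dlx5 at -0.16 (0.837) and Dmp1 at 1.42 (0.142) were not called. The Bglap groups overlapped, and its call was lost without Runx1 replicate 1 (adjusted p 0.155) or 2 (0.134) or without Runx2 replicate 1 (0.0661), 2 (0.112) or 3 (0.124). Bglap2 lost its call without Runx1 replicate 1 (0.0651) or 2 (0.0606) or Runx2 replicate 2 (0.0652). Ibsp gained a call in 4 of 12 settings, namely without Runx1 replicate 3 (log2 -1.61, adjusted p 0.0161), without the libraries with cardiac transcripts (0.000114), with the compared groups alone (0.00191) and with DESeq2 (0.000538).

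Markers of other cells moved with these groups. The stromal progenitor genes summed to 77.6 to 116 CPM in the control, 318 to 352 CPM with Runx1 and 567 to 612 CPM with Runx2, led by Pdgfrb. Of these 5 genes 4 were tested. With Runx1, 3 rose and 0 fell, and with Runx2, 3 rose and 1 fell (log2 -3.345 to 3.18). The macrophage and osteoclast genes, which bear on Spp1, summed to 15.02 to 19.0, 84.7 to 107 and 512 to 589 CPM. Of these 9 genes 6 were tested, and 2 rose with Runx1 (Gpnmb, log2 3.36, and Trem2, 1.74) and 3 with Runx2 (Gpnmb, 6.20, Mrc1, 2.66, and Cd68, 1.36), with none lower. Gpnmb held most of the sum, with 523 CPM in the Runx2 cultures. The macrophage markers Adgre1, Csf1r and C1qa were at 0.0557, 0.252 and 0 CPM there. The summed adipocyte genes were at 7110 to 7384, 6232 to 7742 and 3549 to 4265 CPM. These sums hide differences between the 6 genes. With Runx1, 2 rose and 3 fell (log2 -6.67 to 0.47), and with Runx2, 5 fell and 0 rose (log2 -9.21 to 0.12). The part of these shifts in the osteoblast and cartilage genes was not tested. In these bulk cultures, more cells of a type and more RNA per cell cannot be told apart. Leaving out the 3 libraries with cardiac transcripts left a single control library, assumed to vary like the others. Sp7 was then at log2 5.12 with Runx1 and 3.16 with Runx2.

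**Figure D2:**
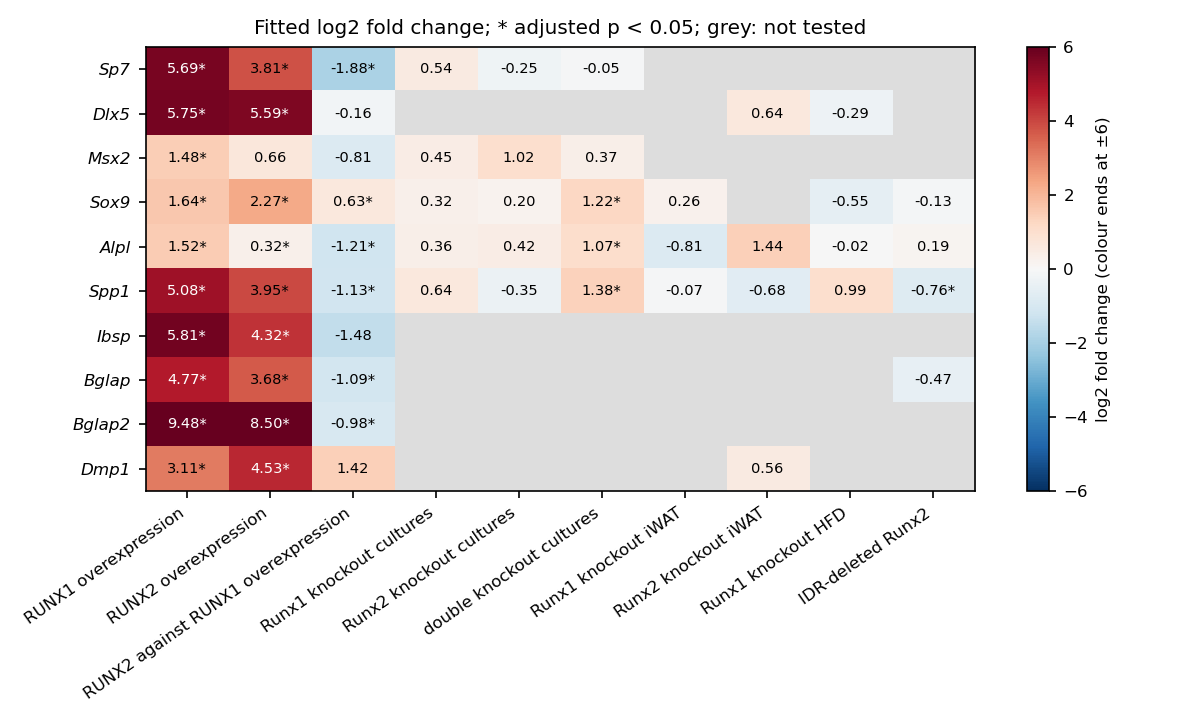
Fitted log2 fold change of each gene (rows) in each of the 10 comparisons (columns), with an asterisk at adjusted p below 0.05 and grey where the gene was too low to be tested. The overexpression columns hold values up to 9.48, whereas the knockout and iWAT columns lie between -0.81 and 1.44.

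The members were then read beside other skeletal genes. Of 32 other osteoblast genes, 29 were tested in the overexpression table. With Runx1, 16 rose and 4 fell, and with Runx2, 21 rose and 4 fell. Of all genes tested, 28.2% and 31.3% were called higher, and the share called lower is not reported here. The medians of the osteoblast genes were log2 1.15 and 1.79. The largest increases with Runx1 were those of the channel gene Panx3 (log2 5.14, SE 0.83), the mineralisation gene Phex (4.51, SE 0.98) and the morphogen gene Bmp4 (3.41, SE 0.81). With Runx2 they were those of Bmp2 (6.74, SE 1.05), Panx3 (5.36, SE 0.84) and Omd, the osteomodulin gene (4.91, SE 0.22). Panx3 had 4 counts in the control, Phex 2 and Bmp2 4. Such genes passed the count filter through the overexpressing libraries, so for them a difference was built into being tested. How many of the 29 did so is not reported here. Phospho1, a phosphatase that starts mineral formation, fell in both, by 1.93 with Runx1 and by 2.93 with Runx2 on the log2 scale. Zbtb16 fell by 1.07 and by 1.04. Enpp1, which encodes a pyrophosphate-producing enzyme, fell with Runx1 (-0.84, SE 0.15) and rose with Runx2 (1.79, SE 0.15), and Kazald1 fell with Runx2 (-0.54, SE 0.19).

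Of 28 other cartilage genes, 17 were tested. With Runx1 7 of them rose and 3 fell, and with Runx2 10 rose and 3 fell, beside 28.2% and 31.3% of all genes called higher. The medians of the cartilage genes were log2 0.92 and 1.08. Matn3, a cartilage matrix protein gene, rose from 0.228 ± 0.112 CPM (n = 3) to 5.51 ± 1.18 CPM with Runx1 (log2 4.53, SE 0.29) and to 22.9 ± 2.66 CPM with Runx2 (log2 6.58, SE 0.30). Snorc and Wif1 had 0 control counts, so they too passed the count filter through the overexpressing libraries. How many of the 17 did so is not reported here. Against a floor of 3 counts over the control group, Snorc was at least 69.0-fold higher with Runx1 and at least 6.60-fold higher with Runx2, and Wif1 at least 9.97-fold and 18.5-fold higher. The collagen genes moved in different directions. Col11a2 fell by 1.30 with Runx1 and by 1.09 with Runx2. Col11a1 fell with Runx1 by 2.14 and rose by log2 0.74 with Runx2. Chst11, which sulphates chondroitin, fell by 0.41 and by 0.51, and Sox6, a partner of SOX9, fell with Runx2 by 1.43. The aggrecan gene Acan, a defining transcript of cartilage, was too low to be tested, at 0.0356 CPM with Runx1 and 0 with Runx2. In the direct contrast, the osteoblast genes Cdh11 (log2 5.26, SE 0.37), Bmp2 (5.14, SE 0.90) and Postn (2.66, SE 0.33) and the cartilage genes Col11a1 (2.88, SE 0.30), Matn3 (2.05, SE 0.22) and Col9a3 (1.96, SE 0.54) were higher with Runx2. Kazald1 (-1.02), Phospho1 (-0.99), Pth1r (-0.55), Snorc (-3.28), Prg4 (-1.71) and Sox6 (-1.49) were lower.

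**Figure D3:**
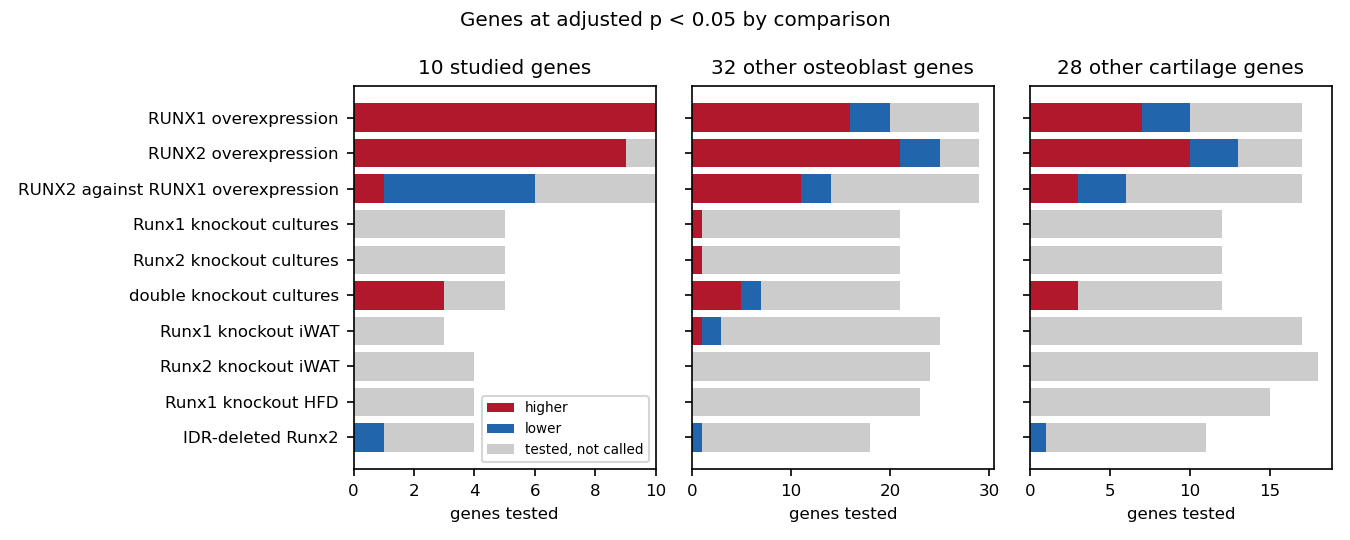
Number of genes tested in each comparison, split into those called higher (red), called lower (blue) and not called (grey), for the 10 studied genes, 32 other osteoblast genes and 28 other cartilage genes. With Runx1 overexpressed 10, 16 and 7 genes rose in the 3 lists, and with Runx2 9, 21 and 10. Of all genes tested, 28.2% and 31.3% were called higher in these 2 comparisons. Some genes of each list passed the count filter through the overexpressing libraries.

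In the knockout cultures 5 of the 10 genes could be tested, Sp7, Alpl, Spp1, Sox9 and Msx2. None was called in the Runx1 knockout, where 0.435% of the 13551 genes tested were called, or in the Runx2 knockout, where 0.184% were. DESeq2 also called 0 members in either. At an unadjusted p below 0.05, 1 of the 5 passed in each, which was Alpl, and 6.95% and 6.43% of all genes did. Alpl was at 37.2, 41.8 and 47.1 CPM in the control, 52.7, 53.3 and 56.1 CPM in the Runx1 knockout and 61.1, 54.6 and 53.6 CPM in the Runx2 knockout. All knockout libraries lay above all control libraries, at log2 0.36 (SE 0.16, adjusted p 0.678) and log2 0.42 (SE 0.16, adjusted p 0.579). The share of all genes that separate in this way is not reported here. The other 4 tested genes ranged from log2 0.32 to 0.64 in the Runx1 knockout and from -0.35 to 1.02 in the Runx2 knockout.

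The double knockout differed in 3 of the 5 tested genes, all higher, against 15.3% of all genes tested. Alpl was at 66.0, 93.1 and 106 CPM, above every library of the control and of the single knockouts. It rose by log2 1.07 (SE 0.16, adjusted p 0.00111). Spp1 was at 9.63, 6.82 and 8.87 CPM against 5.17, 1.87 and 2.71 CPM in the control and rose by log2 1.38 (SE 0.35, adjusted p 0.0206). Sox9 was at 7.36, 11.9 and 11.9 CPM against 3.34, 5.54 and 4.46 CPM and rose by log2 1.22 (SE 0.24, adjusted p 0.00588). Of all genes tested, 30.9% had an unadjusted edgeR p below 0.05, and the share without overlap is not reported here. For Alpl, Spp1 and Sox9 no double knockout library overlapped the control. Replicate 1 had the lowest Alpl and Sox9 of the group, and without it the log2 values were 1.25, 1.29 and 1.42 for Alpl, Spp1 and Sox9, all called, with 3584 genes called in place of 2070. Sp7 stayed at 0.162 ± 0.094 CPM against 0.161 ± 0.228 CPM (n = 3 each) and Msx2 at 0.321 ± 0.161 CPM against 0.249 ± 0.151 CPM. Bglap2 had 0 counts in all 3 double knockout and all 3 control libraries. Bglap, too low to be tested, had 2, 12 and 2 counts in the double knockout and 0, 0 and 1 in the control. The Spp1 call was lost without control replicate 2 (adjusted p 0.0801) or 3 (0.082), and with only the 2 compared groups fitted Spp1 (0.108) and Sox9 (0.0665) were not called.

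The overexpression and double knockout changes shared a direction for Alpl, Spp1 and Sox9, each in its own table and against its own control. The difference between the double knockout and the sum of the single knockout effects was called for none of the 5 members, against 0.0443% of all genes tested. At an unadjusted p below 0.05 it passed for Spp1 (log2 1.09, SE 0.49, p 0.0476, adjusted p 0.446). Of the other osteoblast genes, 5 of 21 rose and 2 fell in the double knockout, and of the cartilage genes 3 of 12 rose. The medians were log2 0.05 and 0.41, and that of all genes tested 0.02. Of all genes tested, 15.3% were called in either direction. Postn (log2 2.74, SE 0.20), Mef2c (2.13, SE 0.64) and Col1a1 (1.24, SE 0.25) led the osteoblast genes, with Phospho1 (-1.04) and Zbtb16 (-1.03) lower. Sox6 (2.56, SE 0.44), Prg4 (2.03, SE 0.43) and Matn3 (1.82, SE 0.54) rose among the cartilage genes. Postn, which encodes the matrix protein periostin, was the called osteoblast gene in each single knockout as well, at log2 1.43 (SE 0.19) and 1.41 (SE 0.19). The summed adipocyte genes were at 6499 to 6572 CPM in the control and 7315 to 15389 CPM in the double knockout, the highest of them in replicate 1. The macrophage and osteoclast genes summed to 9.84 to 12.4 and 21.2 to 27.5 CPM. Of their 4 tested genes 3 rose, Trem2 (log2 1.42), Gpnmb (1.22) and Acp5 (1.19), and Adgre1 was at 0 and 0.0186 CPM. Their part in the changes of Alpl, Spp1 and Sox9 was not tested.

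**Figure D4:**
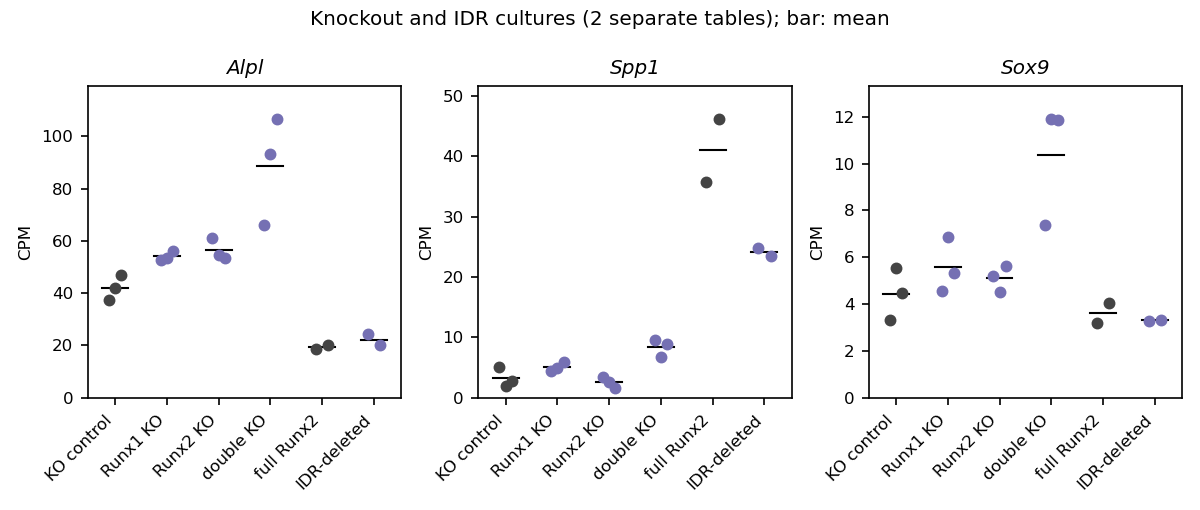
Alpl, Spp1 and Sox9 in CPM per library in the knockout table (4 groups, 3 libraries each) and the IDR table (2 groups, 2 libraries each), with bars at the means and controls in dark grey. Double knockout Alpl lies at 66.0 CPM or more and no control above 47.1, and Spp1 with IDR-deleted Runx2 lies at 23.5 and 24.7 CPM against 35.8 and 46.1 CPM.

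Deleting the IDR of Runx2 was followed in 4 tested members, Alpl, Bglap, Spp1 and Sox9, with 2 libraries per group. Spp1 fell, from 35.8 and 46.1 CPM with full-length Runx2 to 24.7 and 23.5 CPM without the IDR. The change was log2 -0.76 (SE 0.11, adjusted p 1.9e-05), against 3.91% of 13110 genes called in either direction. Fits that left out a library gave values between -0.94 and -0.57, but each compares a single library with 2 and takes the spread between replicates from those 2 only. The authors' deposited table also lists Spp1, at a log2 fold change of -0.77 with an adjusted p of 1.18e-05, and none of the other 9 genes. Alpl (log2 0.19, adjusted p 0.527), Bglap (-0.47, 0.819) and Sox9 (-0.13, 0.887) were not called. Runx2 counts differed too, at 294 ± 0.885 CPM for the full-length and 129 ± 20.2 CPM for the shortened form (SD, n = 2 each). That difference was log2 -1.19 (adjusted p 7.25e-12). A shortened transcript can itself give fewer reads, and the length of the deleted stretch is not given. Runx1 was lower as well, at 3.85 ± 0.651 CPM against 8.21 ± 0.240 CPM (log2 -1.09, SE 0.20, adjusted p 0.000328). The deletion, the lower Runx2 counts and the lower Runx1 level cannot be told apart. Of the other lists, Zbtb16 (log2 -0.44, SE 0.09) among 18 osteoblast genes and Prg4 (-1.07, SE 0.31) among 11 cartilage genes were lower, and none was higher.

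The 2 tables with added full-length Runx2 gave different levels of these genes at like levels of Runx2. Runx2 was at 294 CPM in the IDR table and 309 CPM in the overexpression table. Sp7 was at 0.236 and 0.176 CPM in the former and 3.14 to 4.25 CPM in the latter. Bglap2 was at 0.177 and 0.0587 CPM against 7.56 to 8.86 CPM, and Ibsp at 0.177 and 0.0587 CPM against 1.42 to 2.01 CPM. Sox9 was at 3.19 and 4.05 CPM against 25.5 to 31.7 CPM. Alpl was at 18.8 and 20.1 CPM, below the 74.7 to 87.6 CPM of the OEV control, and Spp1 at 35.8 and 46.1 CPM, above the 3.22 to 8.80 CPM of that control. The tables were scaled separately and share no group, so these levels stand side by side with no test. The stromal progenitor genes summed to 41.6 to 42.6 CPM in the full-length cultures and 567 to 612 CPM in the Runx2 overexpression cultures, and the adipocyte genes to 9708 to 9749 and 3549 to 4265 CPM.

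In inguinal fat, most of the 10 genes were at the limit of detection. Bglap2 had 0 counts in all 18 libraries, and Ibsp had counts in 1 of them. Sp7 was at 0.254 CPM or less, Bglap at 0.481 CPM or less, and Msx2 at 0.343 CPM or less in every library. In the Runx1 knockout, 3 members could be tested and none was called, against 7.48% of 15896 genes. DESeq2 also called 0. Alpl was at 6.48, 12.6 and 10.7 CPM in the flox group and 7.37, 3.75 and 5.80 CPM in the knockout, and it was the 1 member of 3 with an unadjusted p below 0.05, which 25.1% of all genes had. The groups overlapped, at log2 -0.81 (SE 0.32, p 0.0271, adjusted p 0.141). Without the libraries with skeletal muscle transcripts the value was -0.22. That fit leaves out knockout replicates 2 and 3, at 3.75 and 5.80 CPM, and rests on a single knockout library, at 7.37 CPM. It therefore cannot separate muscle transcripts from the loss of the lower knockout values. Spp1 was at 15.5, 18.01 and 12.9 CPM against 13.7, 16.5 and 14.0 CPM (log2 -0.07, SE 0.19). Sox9 varied widely within the flox group, at 2.23, 0.385 and 0.289 CPM, and was at 1.17, 1.51 and 0.814 CPM in the knockout (log2 0.26, SE 0.75).

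In the Runx2 knockout, 4 members could be tested. Neither they nor any of the 15574 genes were called (0%), although 20.6% of genes and 1 of the 4 members had an unadjusted p below 0.05, and DESeq2 called 1039 genes. Alpl was at 3.61, 4.99 and 8.34 CPM in the flox group and 17.4, 11.0 and 17.6 CPM in the knockout. The groups did not overlap, at log2 1.44 (SE 0.36, p 0.00444, adjusted p 0.218), a 2.71-fold difference. The share of all genes without overlap is not reported here. Without Runx2 flox replicate 3, the library with skeletal muscle transcripts, Alpl was at log2 1.83 (adjusted p 0.00121) and 6354 genes were called. DESeq2 on all libraries gave Alpl an adjusted p of 0.00895. Flox replicate 3 also differed from flox replicates 1 and 2 in other markers. Its B cell genes summed to 221 CPM, against 1321 and 1299 CPM. Its adipocyte genes summed to 31336 CPM, against 12205 and 14844.5 CPM. The knockout libraries were at 184 to 410 and 32269 to 40472 CPM. Leaving out flox replicate 3 therefore also removed the flox library closest to the knockouts in these sums, and their part was not tested. Spp1 was at 12.5, 18.2 and 38.2 CPM in the flox group, highest in that same library, and at 11.8, 12.6 and 18.8 CPM in the knockout (log2 -0.68, SE 0.42, adjusted p 0.354). In a joint fit of both tables, the Runx2 knockout effect differed from the Runx1 knockout effect for 1 of 5 members, Alpl (log2 2.28, SE 0.51, adjusted p 0.0488), against 1.58% of 16416 genes called. That call was lost in every fit that left out a library (highest adjusted p 0.156) except the fit without Runx2 flox replicate 3 (0.00183). Dlx5 (log2 0.64, SE 0.71) and Dmp1 (0.56, SE 0.61) were below 1 CPM throughout.

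Endothelial cells of many tissues carry alkaline phosphatase. The 5 endothelial genes, all with counts in every iWAT library, summed to 809 to 1054 CPM in Runx1 flox and 507 to 727 CPM in Runx1 knockout fat. They summed to 633 to 1061 CPM in Runx2 flox and 1010 to 1237 CPM in Runx2 knockout fat, and to 895 to 1212 CPM in wild-type and 1202 to 1279 CPM in Runx1 knockout fat labelled HFD. Of the 5, Kdr fell in the Runx1 knockout (log2 -0.99), and none was called in the other 2 tables. Their median log2 fold changes were -0.51, 0.46 and 0.35, beside Alpl at -0.81, 1.44 and -0.02. The adipocyte genes summed to 12205 to 31336 CPM in Runx2 flox and 32269 to 40472 CPM in Runx2 knockout fat. The B cell genes summed to 221 to 1321 and 184 to 410 CPM. Runx2 flox replicate 3 had the lowest B cell and the highest adipocyte sum of the flox group. The part of these cells in the Alpl values was not tested, and in bulk tissue fewer cells and less RNA per cell cannot be told apart.

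In the HFD groups, 4 members were tested and none was called, against 2.11% of 15058 genes. No member had an unadjusted p below 0.05, and DESeq2 called 0 of them. Alpl was at 6.20, 6.07 and 8.34 CPM in wild type and 8.39, 5.89 and 6.08 CPM in the knockout (log2 -0.02, SE 0.29). Spp1 was at 7.16, 2.46 and 6.22 CPM in wild type and 5.68, 20.7 and 5.14 CPM in the knockout (log2 0.99, SE 0.55, adjusted p 0.767), where replicate 2 was the highest and the groups overlapped. Without that library the value was 0.035 (adjusted p 0.991). The macrophage and osteoclast genes summed to 964 to 1561 and 874 to 2266 CPM in these groups. The B cell genes summed to 156 to 313 CPM in wild type and 2.02 to 3.28 CPM in the knockout. All 4 of them were called lower (median log2 -6.51). The part of these cells in the member values was not tested. Sox9 (log2 -0.55, SE 0.72) and Dlx5 (-0.29, SE 0.59) were below 1 CPM. The authors' deposited table for this comparison lists 403 genes and 0 of the 10. The Runx1 knockout effect under HFD differed from that in the other Runx1 table for none of the 5 members tested jointly in edgeR, none with an unadjusted p below 0.05, against 4.4% of 16361 genes.

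Of the other osteoblast genes, 1 of 25 rose and 2 fell in Runx1 knockout iWAT, namely Twist1 (log2 0.89, SE 0.22), the vitamin D receptor gene Vdr (-1.36, SE 0.33) and Mef2c (-0.82, SE 0.14). None of 17 cartilage genes was called there, and 7.48% of all genes tested were. In Runx2 knockout iWAT none of 24 and 18 and under HFD none of 23 and 15 were called.

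**Figure D5:**
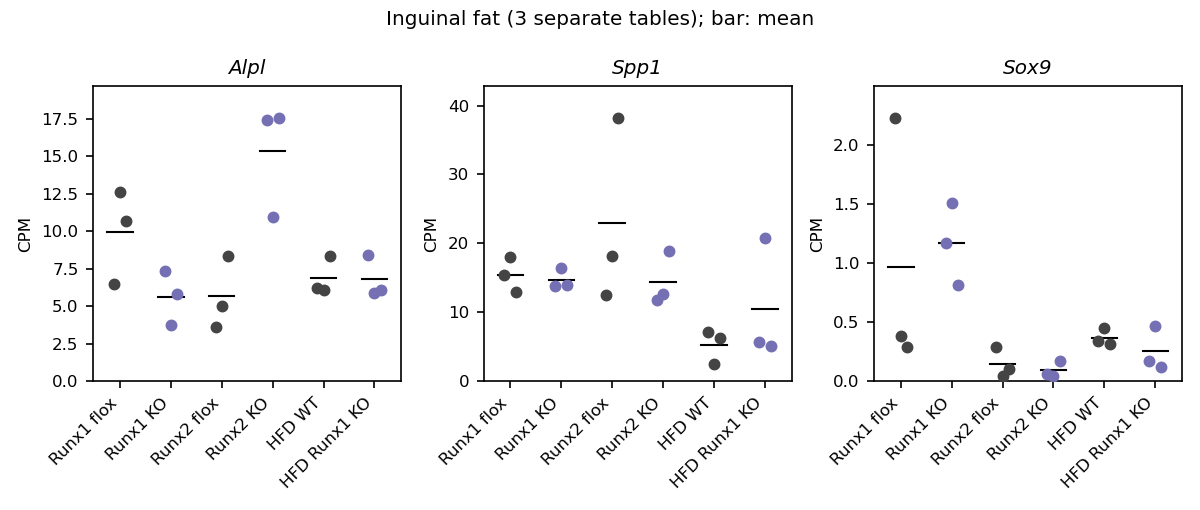
Alpl, Spp1 and Sox9 in CPM per library in the 6 inguinal fat groups of 3 separate tables, with bars at the means and controls in dark grey. Alpl in Runx2 knockout fat lies at 11.0 CPM or more against 8.34 CPM or less in Runx2 flox fat, and a single library sets the highest Spp1 values in Runx2 flox (38.2 CPM) and HFD Runx1 knockout fat (20.7 CPM).

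Across all groups Alpl had its highest mean in the Runx1 overexpression cultures (240 ± 28.2 CPM), followed by Runx2 overexpression (104 ± 8.89), the double knockout (88.5 ± 20.6) and the OEV control (83.3 ± 7.45). The libraries of the double knockout, from 66.0 to 106 CPM, overlapped those of both its neighbours in that order. It was lowest in iWAT, from 5.64 ± 1.82 CPM in Runx1 knockout to 15.3 ± 3.77 CPM in Runx2 knockout fat (SD, n = 3 each). Spp1 went from 2.53 ± 0.946 CPM in Runx2 knockout cultures to 190 ± 32.4 CPM with Runx1 overexpressed, and iWAT groups lay between 5.28 ± 2.49 and 23.0 ± 13.5 CPM. Sox9 was at 27.7 ± 3.51 CPM with Runx2 overexpressed and at 1.16 ± 0.347 CPM or less in all iWAT groups. Sp7 exceeded 1 CPM only in the Runx1 and Runx2 overexpression libraries, of all 43. Levels from different tables were scaled separately.

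Over the 25 culture libraries, which share their groups and tables, the genes whose log2(CPM + 1) was most like that of Sp7 included Gzmc (Pearson r 0.987), Ngef (0.987), Camk4 (0.984) and Fmod, the fibromodulin gene (0.982). Among the other members Ibsp (0.979) and Bglap2 (0.974) were nearest to Sp7. The genes most like Alpl included Tubb5 (0.963), Basp1 (0.95), Gnai2 (0.94) and Gp1bb (0.935). Spp1 was nearest to the cell division gene Cdca5 (0.97), Prps1 (0.963), Angpt1 (0.961), Sema3e (0.96) and Incenp (0.959). Over the 18 iWAT libraries Spp1 was nearest to Pmp22 (0.899) and Dusp15 (0.887), Sox9 to Faap24 (0.885) and Zfp418 (0.87), and Alpl to Cry2 (0.901) and Ptp4a1 (0.898). There the members were not close to each other, with Alpl and Spp1 at 0.122 and Alpl and Sox9 at -0.396. These coefficients are a description of libraries that are not independent of each other.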

How the data were processed

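The submitters' processing notes name fastp, STAR, featureCounts and the mm39 build, and their versions and options are not given in the sources used here. The deposited values are raw counts per gene symbol in 6 tables, per the file headers. The authors' deposited lists hold log2 fold changes and an adjusted p-value of 2 comparisons, per the file headers, and 10 per-sample columns of those lists were not used. Even values made up 71.1 to 81.9% of counts from 1 to 19, and whether mates were counted separately is not known.

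Each table was fitted in edgeR 4.0.16 (R 4.3.3) by the quasi-likelihood test with robust dispersion, after filterByExpr and TMM, on all groups of the table, with Benjamini-Hochberg adjustment over all genes tested. The procedure was tested on simulated counts drawn with the fitted spread, in which no library stood apart, unlike in the data. Of 200 genes changed by log2 2 in size, it recovered 81.5% for Runx1 overexpression, 94.5% for the IDR and 72% for Runx2 knockout iWAT. False calls made up 2.98%, 6.44% and 4.64% of the calls. Differences between effects, within the knockout table or in joint fits of 2 iWAT tables, were tested after seeing the data. Alternatives were DESeq2 1.42.0, its size factors, the compared groups alone, a block for the replicate number, no filter on low counts, no libraries with cardiac transcripts, and each library left out. Fits without libraries with skeletal muscle transcripts were chosen after seeing the data. The members and gene lists were chosen with earlier results of these data known. Named were the 10 members, Runx1 and Runx2, and up to 3 called genes of largest change per list, direction and comparison; Acan, Col11a1 and Enpp1 were also named in other comparisons after their values were seen. Likeness used log2(CPM + 1) over genes with a mean of at least 1 CPM, without predicted genes, and the 5 nearest genes, of which some are not reported here. Exon lengths, Bglap transcripts and promoters came from GRCm38 annotation, another build than the counts, so no other positions are given. In that annotation Spp1 shares 309 exon bases with the predicted gene Gm42793. Figures used Python 3.11.15 and matplotlib 3.10.9.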

Additional observations from a re-analysis of the deposited data

Results flagged for a closer look

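The effect of the knockout on Alpl differed between the Runx2 and the Runx1 iWAT tables in a joint fit, by log2 2.28 (SE 0.51, edgeR adjusted p 0.0488), with 1.58% of 16416 genes called. Alpl was higher in Runx2 knockout than in Runx2 flox fat, and lower on average in Runx1 knockout than in Runx1 flox fat. The call was close to the threshold: over the fits that each left out a library, the value ran from 2.05 to 2.66 and the adjusted p from 0.00183, without Runx2 flox replicate 3, to 0.156, without Runx1 knockout replicate 2. Without the 4 libraries with skeletal muscle transcripts, which leaves a single Runx1 knockout library, it was 2.03. The 2 knockouts come from separate tables, so table and gene cannot be told apart, and the part of endothelial cells, whose 5 genes had a median log2 fold change of 0.46 and -0.51 with 0 and 1 of them called, was not tested. Under HFD that median was 0.35 and Alpl was at -0.02. Runx2 flox replicate 3 also had the lowest B cell and the highest adipocyte sum of its group, and their part was not tested.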

How the results depend on the processing

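All values here are from edgeR unless DESeq2 is named. With DESeq2 the genes called were 220 in the Runx1 and 197 in the Runx2 knockout cultures, 2286, 1039 and 517 in the Runx1, Runx2 and HFD iWAT comparisons, and 1 member was called in Runx2 knockout iWAT. With the compared groups alone they were 195, 105 and 379 in the Runx1, Runx2 and double knockout cultures, with 1 member in the last. Without skeletal muscle libraries 415 and 6354 genes were called in Runx1 and Runx2 knockout iWAT, with 1 member in the latter.

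The replicate number was not shown to pair libraries, since in no comparison did every pair's deviations correlate above 0.1. With it as a block 32 and 12 genes were called in the Runx1 and Runx2 knockout cultures, 744 in Runx1 knockout iWAT and 206 under HFD, and the members called stayed at 10, 9, 6, 0, 0, 3, 0, 0, 0 and 1 in the order of the columns of the fold change plot.

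Leaving out a library in turn gave 6710 to 8489 genes with Runx1 and 7841 to 8559 with Runx2 overexpressed, and 3912 to 6793 between them. It gave 4 to 28, 0 to 9 and 1050 to 3584 in the Runx1, Runx2 and double knockout cultures. It gave 99 to 1381, 0 to 6354 and 120 to 394 in the Runx1, Runx2 and HFD iWAT comparisons, and 242 to 1214 for the IDR. Members called were 9 to 10, 8 to 9, 4 to 7, 2 to 3 in the double knockout, and 0 to 1 in Runx2 knockout iWAT.

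Signs changed only for members that were not called, and the log2 ranges over the libraries left out were as follows. Dlx5 between the overexpressions ran from -0.32 to 0.045 (without Runx1 replicate 1). In the Runx1 knockout cultures Sp7 ran from -0.12 (without knockout replicate 1) to 2.77. In the Runx2 knockout cultures Sp7 ran from -0.87 to 1.98 (without control replicate 3), with 0.12 without knockout replicate 1, and Spp1 from -0.64 to 0.16 (without control replicate 1). In the double knockout Sp7 ran from -0.58 to 2.18 (without control replicate 3), with 0.38 without knockout replicate 2, 0.0077 with DESeq2 and 0.12 with the replicate block. In Runx1 knockout iWAT Spp1 ran from -0.18 to 0.048 (without flox replicate 2) and Sox9 from -0.17 (without flox replicate 3) to 1.77, with -0.12 without flox replicate 2 and -0.11 without skeletal muscle libraries. Alpl under HFD ran from -0.20 to 0.15 (without wild-type replicate 3), with 0.08 and 0.06 without knockout replicates 2 and 3. With IDR-deleted Runx2, Bglap ran from -1.10 to 0.68 and Sox9 from -0.29 to 0.051, both highest without full-length replicate 2. The cause was not tested for any of these. Genes under about 1 CPM rest on few counts.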
